A study of Mus musculus with 13 samples.

Results

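Genes of glutamate and GABA receptor subunits were examined in mouse neocortex in which the transcription factor Fezf2 had been added to cells or was labelled as removed. The genes were chosen by symbol, from the Gria, Grik, Grin, Grid, Grm, Gabr and Gabbr genes of the deposited count table. Not every Grik gene was included, so the kainate class is incomplete here. The choice gave 46 of 35972 gene rows. They comprised 25 glutamate receptor genes, of which 4 encode AMPA, 4 kainate, 7 NMDA, 2 delta and 8 metabotropic receptors. The other 21 comprised 19 genes of the GABA-A receptor, including its rho subunits, and 2 of the GABA-B receptor.

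Glutamate is the main excitatory transmitter of the neocortex and GABA the main inhibitory one. AMPA, kainate and NMDA receptors are cation channels assembled from subunits, GABA-A receptors are chloride channels built mostly from alpha, beta and gamma subunits, and the metabotropic glutamate receptors and the GABA-B receptor act through G proteins. Subunit makeup sets how a channel behaves: Gria2 makes AMPA receptors poorly permeable to calcium, and NMDA receptors pair the obligatory Grin1 with Grin2 or Grin3 subunits. In the rodent forebrain Grin2b and Gabra2 are known as early subunits, and Grin2a as a later one.

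The 10 RNA sequencing libraries came from a pair of experiments. In the first, embryos of the CD-1® IGS strain were electroporated in utero at E16.5, and fluorescent neocortical cells were collected by sorting on postnatal day 3. Its groups were 5 libraries titled Fezf2 + GFP, labelled as Fezf2 over-expression, and 3 titled GFP, labelled as the Gfp control. In the second, neocortices taken whole from newborn C57BL6/J mice (postnatal day 0) gave 1 library labelled Fezf2 knockout and 1 labelled Fezf2 wild type. Emx1-cre, which acts in the dorsal forebrain progenitors of excitatory neurons and astrocytes and leaves interneurons that migrate in from elsewhere, was used to delete a floxed Fezf2 allele. Both titles of the second experiment name Emx-cre, and whether the wild type carried Cre or floxed alleles is not stated. Sorted cells went through the NuGEN Ovation V2 kit and whole neocortex through a TruSeq mRNA kit, so kit, sorting, age and strain cannot be told apart between the experiments. Nothing in the labels says that the replicates were separate animals or litters, so the p-values measure only the spread between these libraries.

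The sorted-cell libraries held 3245932 to 5801839 counts each, the library labelled Fezf2 knockout 17856211 and the wild-type library 11818437. In sorted cells, receptor genes made up 0.282 to 0.418% of all counts. They made up 0.402% and 0.445% in the neocortex libraries labelled knockout and wild type. Mitochondrial genes took up 21.0 to 27.1% of each sorted library and 0.0% of both neocortex libraries. The receptor shares therefore rest on different totals and do not show which experiment held more receptor RNA. Fezf2 itself was at 142, 138, 85.1, 151 and 101 CPM (reads of a gene scaled to the size of its library) in Fezf2 + GFP replicates 1 to 5 and at 8.62, 12 and 3.54 in GFP replicates 1 to 3. In neocortex it was not lower in the library labelled knockout, with 53.5 CPM from 955 counts against 51.4 CPM from 607 counts. The deleted part of the gene is not stated, so this count of the whole gene does not settle the genotype. Among the sorted libraries, Xist was at 5098 CPM in Fezf2 + GFP replicate 5 and 5134 in GFP replicate 1, and at 17.7 to 25.3 in the other 6.

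The sorted-cell receptor gene with the smallest p was Grm3, and Grik2 was one of the genes that stood apart in neocortex, so the sequence before the annotated start of each is shown, 5′ to 3′ on the gene's own strand, from RefSeq on GRCm38.p6. The Grm3 window is chr5:9725353-9725602 on the minus strand and the Grik2 window chr10:49788755-49789004 on the minus strand. Capitals mark a GC box, GGGCGG, the letters bound by Sp-family factors.
Grm3: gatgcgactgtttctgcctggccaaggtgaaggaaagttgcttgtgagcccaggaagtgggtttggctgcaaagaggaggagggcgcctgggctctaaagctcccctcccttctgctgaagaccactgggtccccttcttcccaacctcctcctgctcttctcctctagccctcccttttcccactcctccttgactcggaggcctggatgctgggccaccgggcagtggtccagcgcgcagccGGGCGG
Grik2: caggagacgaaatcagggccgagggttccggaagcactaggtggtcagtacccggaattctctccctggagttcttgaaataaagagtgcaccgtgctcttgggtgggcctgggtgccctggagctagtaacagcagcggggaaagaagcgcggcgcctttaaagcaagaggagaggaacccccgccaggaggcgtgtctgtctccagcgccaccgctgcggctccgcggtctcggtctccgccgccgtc
Both windows were rich in G and C, at 62.4% in Grm3 and 62.8% in Grik2, against a median of 52.4% over 32526 windows of 250 bases. The Grm3 window held 1 GC box, at the end next to the start, and the Grik2 window held none. On both strands, GGGCGG was in 33.0% of all windows, TATAAA in 12.3%, CCAAT in 33.8% and CAGATG in 14.4%, and none of these motifs contains another. Of the 46 receptor genes, 31 had a window, with 38 windows in all, of which 17 held GGGCGG, 4 TATAAA, 16 CCAAT and 3 CAGATG.

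In sorted cells, no receptor gene passed the test between Fezf2 + GFP and GFP. Of the 46 genes, 36 had enough counts to be tested, and 0 of the 36 had an edgeR adjusted p under 0.05, where 0.0145% of all 13754 genes tested did. The smallest adjusted p of a receptor gene was 0.719. At an unadjusted p under 0.05 there were 2 receptor genes, Grm3 and Grin3a, both higher in Fezf2 + GFP, against 6.55% of all genes (4.31% higher and 2.24% lower), and DESeq2 gave 0 adjusted and 3 unadjusted. The same 2 genes were the only ones of the 36 whose 5 Fezf2 + GFP libraries did not overlap the 3 GFP libraries, where 4.71% of all genes did not overlap (2.25% higher and 2.46% lower). The log2 fold change lay above 0 for 26 of the 36 and below for 10, with a median of 0.20, while 52.9% of all genes lay above 0 with a median of 0.02.

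**Figure D1:**
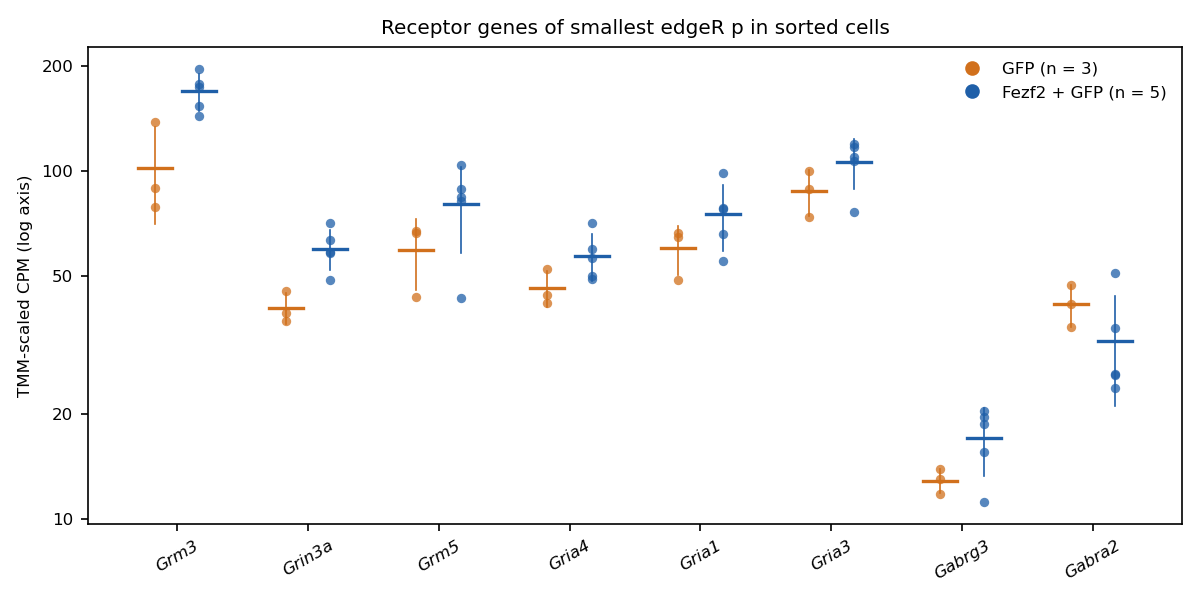
CPM in each sorted-cell library of 8 of the receptor genes with the smallest p, on a log axis; points are the 5 Fezf2 + GFP and 3 GFP libraries and bars the group means with 1 SD. The groups do not overlap for Grm3 and Grin3a and overlap for the other 6.

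Grm3 (ENSMUSG00000003974), a group II metabotropic receptor found on neurons and astrocytes, had the smallest p. It was at 154, 197, 144, 178 and 174 CPM in Fezf2 + GFP replicates 1 to 5 and at 138, 89.3 and 78.7 in GFP replicates 1 to 3. All 5 Fezf2 + GFP libraries lay above the 3 GFP libraries, but replicate 3 lay only just above GFP replicate 1. The means were 169 ± 21 (SD, n = 5) and 102 ± 31.5 (SD, n = 3), and the fitted difference was 0.73 on the log2 scale (SE 0.19, edgeR p 0.00156, adjusted p 0.719). The gene passed when genes of low count were kept in the test (adjusted p 0.0342), and in no other of the 15 alternative fits, whose adjusted p ranged up to 0.999. Leaving out 1 library at a time gave log2 fold changes of 0.57 to 1.01. The astrocyte markers used here do not include Grm3 and, like all the gene lists, were chosen with earlier results known. They summed to 788, 2680, 1271, 3826 and 2671 CPM in Fezf2 + GFP replicates 1 to 5 and to 1353, 1000 and 977 in GFP. Slc1a2 and Slc1a3 made up the largest parts of these sums. In Fezf2 + GFP, Slc1a2 was at 320, 1388, 592, 1959 and 1423 CPM and Slc1a3 at 194, 669, 328, 787 and 568. The highest sums, in Fezf2 + GFP replicates 2, 4 and 5, stood beside the highest Grm3 levels, 197, 178 and 174 CPM. The lowest sum, in Fezf2 + GFP replicate 1, stood beside a Grm3 level of 154 CPM. All 10 astrocyte markers had a log2 fold change above 0. None passed the test, and S100b was at 0 in 1 of the 8 libraries. When genes of low count were kept in the test, 6 of the 10 passed, where 117 of all 26328 genes in that fit did. The part of astrocyte RNA in the Grm3 difference was not tested. In bulk libraries, fewer cells of a type and less RNA per cell cannot be told apart.

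The other metabotropic receptor genes tested did not pass the test either. Grm5, the group I receptor that raises intracellular calcium, was at 43.3, 82.3, 84.1, 88.7 and 104 CPM in Fezf2 + GFP and 67.4, 66.5 and 43.6 in GFP. The lowest Fezf2 + GFP library lay below all 3 GFP libraries, and the log2 fold change was 0.44 (SE 0.25, adjusted p 0.796). Grm2, the other group II receptor, was at 5.8 to 24.9 CPM in Fezf2 + GFP and at 13.5 to 16 in GFP. Of the 7 metabotropic genes tested, 6 had a log2 fold change above 0 and 1 below, with a median of 0.32.

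Among NMDA receptor genes, Grin3a (ENSMUSG00000039579), which encodes a subunit of juvenile receptors that lowers their calcium permeability, had the second smallest p of all receptor genes. Its levels were 58.4, 48.8, 58, 63.3 and 70.8 CPM in Fezf2 + GFP and 37.1, 45.2 and 39.2 in GFP. The groups did not overlap, with 48.8 CPM as the lowest Fezf2 + GFP value and 45.2 as the highest GFP value. The means of 59.8 ± 8.03 (SD, n = 5) and 40.5 ± 4.17 (SD, n = 3) differed by 0.56 on the log2 scale (SE 0.19, edgeR p 0.00844, adjusted p 0.729). Grin2b, the early Grin2 subunit, was at 441, 384, 365, 205 and 381 CPM in Fezf2 + GFP and 308, 379 and 291 in GFP. Its lowest and its highest library both belonged to the Fezf2 + GFP group, and the log2 fold change was 0.12 (SE 0.20, adjusted p 0.93). Grin1, the obligatory subunit, was at 68.5 to 107 CPM in Fezf2 + GFP and 76.5 to 83.5 in GFP. Grin2a was low in every sorted library, at 2.02 to 9.53 CPM, and Grin2c had 40 counts over all 8 libraries and was not tested.

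The 4 AMPA receptor genes overlapped between the groups. Gria2, the receptor gene of highest level per length in sorted cells, was at 1510, 1584, 1188, 652 and 933 CPM in Fezf2 + GFP and 1127, 1233 and 1382 in GFP. Fezf2 + GFP replicates 1 and 2 lay above all GFP libraries and replicates 4 and 5 below them, so that the SD within Fezf2 + GFP was 391 around a mean of 1173 CPM. The markers of cortical glutamatergic neurons summed to 1204, 903, 979, 557 and 751 CPM in the same libraries and to 1262, 1324 and 1225 in GFP. These sums were lowest in replicates 4 and 5, as Gria2 was. In replicates 1 and 2, where Gria2 lay above all GFP libraries, the marker sums lay below all GFP libraries. Of these 7 markers, 6 had a log2 fold change below 0, with a median of −0.49, and none passed the test. Neurod2 was the 1 marker of the 7 whose groups did not overlap, lower in Fezf2 + GFP, against 2.46% of all genes. When genes of low count were kept in the test, 1 of the 7 passed, lower in Fezf2 + GFP, where 117 of all 26328 genes passed. Whether these markers account for the Gria2 level was not tested. The log2 fold change of Gria2 was −0.09 (SE 0.23, adjusted p 0.956). Gria1, Gria3 and Gria4 had log2 fold changes of 0.33, 0.27 and 0.31, with adjusted p from 0.811 to 0.822. Gria1 was at 55.2 to 98.9 CPM in Fezf2 + GFP and 48.7 to 66.6 in GFP. For Gria3 the ranges were 76.4 to 120 and 73.7 to 100 CPM. For Gria4 they were 48.9 to 70.8 and 41.9 to 52.2 CPM.

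The kainate genes, with a median log2 fold change of −0.08, did not pass the test either. Grik2 was at 160, 122, 140, 153 and 156 CPM in Fezf2 + GFP and 158, 147 and 138 in GFP. These values are nearly the same in every library, and Grik2 had the lowest biological coefficient of variation of the receptor genes tested, 15.5%, with a log2 fold change of −0.01 (SE 0.14). Grik5, an auxiliary-type kainate subunit that needs partners to form a channel, was at 68.7 to 139 CPM in Fezf2 + GFP and 74 to 92.9 in GFP. Grid1, a delta receptor that acts as a synaptic adhesion partner, had a log2 fold change of 0.17 and did not pass the test.

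Of the 13 GABA receptor genes tested, 10 had a log2 fold change above 0 and 3 below, with a median of 0.06. Gabra2, the early alpha subunit, was at 51, 35.3, 26.1, 26 and 23.8 CPM in Fezf2 + GFP and 35.7, 41.4 and 47.2 in GFP. Its highest value and its 3 lowest values were all in Fezf2 + GFP libraries, and the log2 fold change was −0.35 (SE 0.26, adjusted p 0.829). Gabrg3 was at 11.2 to 20.4 CPM in Fezf2 + GFP and 11.8 to 13.9 in GFP, with a log2 fold change of 0.41 (adjusted p 0.822). The GABA-B genes Gabbr1 and Gabbr2 had log2 fold changes of 0.06 and 0.05. Of the 10 receptor genes below the count limit, 8 were GABA-A genes, Gabra6, Gabrd, Gabre, Gabrp, Gabrq and the 3 rho genes Gabrr1, Gabrr2 and Gabrr3, with 5 to 35 counts each over the 8 libraries. The remaining ones were Grin2c and Grm6, the receptor of retinal bipolar cells, which had 11 counts.

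**Figure D2:**
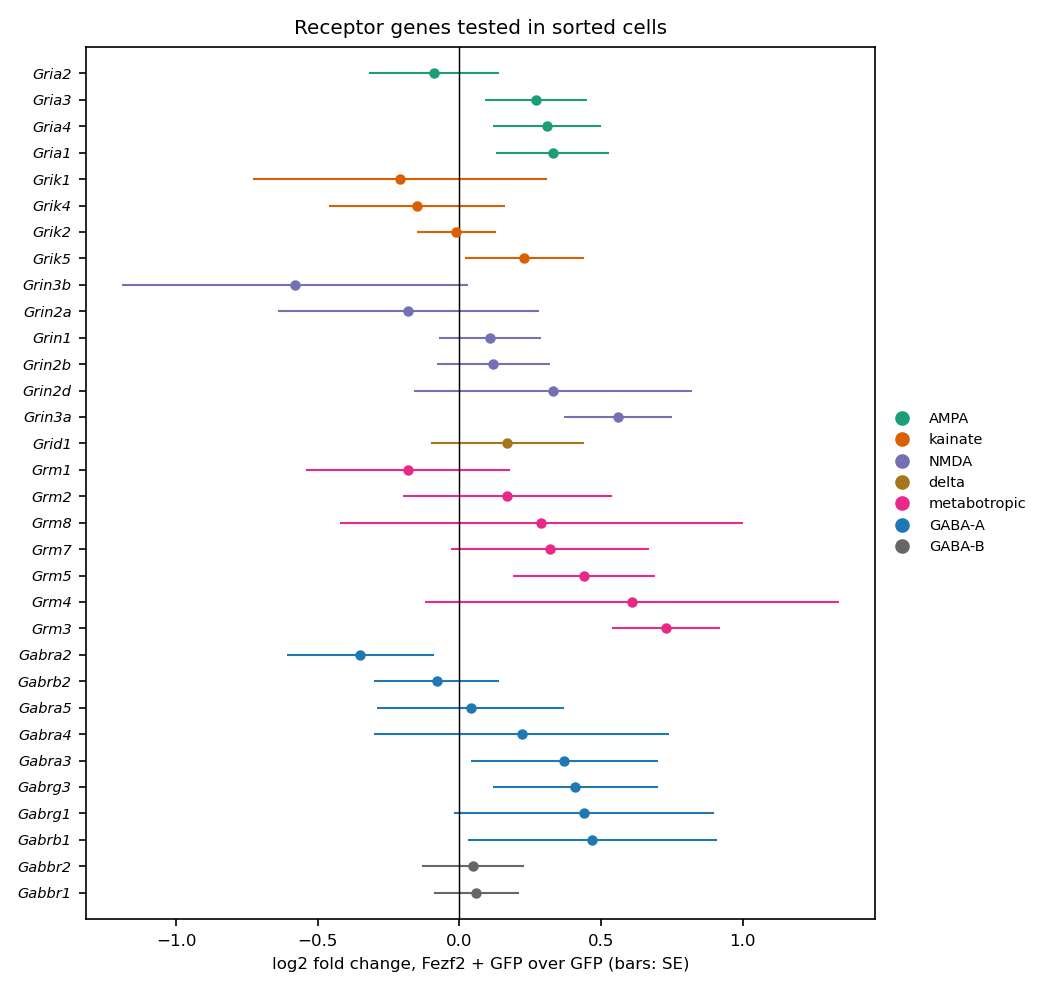
Log2 fold change of Fezf2 + GFP over GFP for 32 of the receptor genes tested, grouped by receptor class; points are edgeR estimates and bars 1 SE. Grm3 has the highest value, 0.73, and none of them passed an adjusted p of 0.05.

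The libraries of the Fezf2 + GFP group differed among themselves in their receptor genes. The median log2 difference of the 36 genes from the GFP mean was 0.09, 0.13, 0.33, −0.16 and 0.33 in Fezf2 + GFP replicates 1 to 5 and 0.10, 0.01 and −0.06 in GFP. Summed over all receptor genes, Fezf2 + GFP held 4250, 4146, 3903, 2840 and 3561 CPM and GFP 3646, 3740 and 3642. Replicate 4 had the lowest sum of the 8 libraries, and it also had the highest astrocyte sum and the highest sum of oligodendrocyte precursor markers. The latter summed to 712, 983, 695, 1654 and 1103 CPM in Fezf2 + GFP and 776, 580 and 734 in GFP, and all 7 lay above 0, with a median log2 fold change of 0.58. Whether those cells lower the receptor share was not tested. Interneuron markers summed to 121 to 315 CPM in Fezf2 + GFP and 160 to 223 in GFP, with 7 of 9 above 0 and a median of 0.47. Radial glia and progenitor markers summed to 352 to 888 and 400 to 438 CPM, with 8 of 8 above 0 and a median of 0.34. Vascular markers summed to 50.5 to 176 CPM in Fezf2 + GFP and 39.2 to 59.7 in GFP, with 5 of 5 tested above 0 and a median of 0.95. None of these markers passed the test, and their part in the receptor differences was not tested. With genes of low count kept in it, 1 oligodendrocyte precursor, 2 radial glia and progenitor and 1 vascular marker passed, all higher in Fezf2 + GFP. In that fit, 117 of all 26328 genes passed. Microglia markers were near 0, at 10.3 to 34.6 CPM in all 8 libraries, and 6 of the 7 were at 0 in at least 1 library. Markers of striatal neurons summed to 14.4 to 26.6 CPM in Fezf2 + GFP and 15.7 to 18.1 in GFP.

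Genes that work beside the receptors were taken from 4 lists, and none of them passed the test in sorted cells. With genes of low count kept in the test, 4 passed, where 117 of all 26328 genes did. The 4 were all higher in Fezf2 + GFP and all on the list of transmitter synthesis and transport, among them Slc1a2, Slc1a3 and Glul. Of the auxiliary subunits of AMPA and kainate receptors, 13 of 14 were tested, 4 with a log2 fold change above 0 and 9 below, with a median of −0.09. Cnih2, which slows AMPA receptor closing, was at 58.2 ± 13.6 CPM (SD, n = 5) in Fezf2 + GFP and 80.2 ± 11.5 (SD, n = 3) in GFP, and its fitted difference was −0.46 (log2, SE 0.20, edgeR adjusted p 0.739). Of the 18 scaffold genes, 10 lay above 0 and 8 below, with a median of 0.03. Of the partners of GABA receptors, 12 of 13 were tested, 5 above 0 and 7 below, with a median of −0.06. Genes of transmitter synthesis and transport had a median of 0.42, with 12 of 16 above 0, against 52.9% of all genes. Of the 16, 5 had an unadjusted p under 0.05, all higher, against 4.31% of all genes higher and 2.24% lower at that p. These included Slc1a2 and Slc1a3, the glutamate transporters of astrocytes, Slc6a11, which carries GABA, and Glul, the glutamine synthetase. Slc1a2 was at 1136 ± 668 CPM (SD, n = 5) in Fezf2 + GFP and 462 ± 79.8 (SD, n = 3) in GFP, which edgeR estimated as 1.30 on the log2 scale (SE 0.48, adjusted p 0.729). The log2 fold changes were 0.86 in Slc1a3, 0.76 in Glul and 0.65 in Slc6a11, with adjusted p from 0.729 to 0.754. Slc1a2 and Slc1a3 are also on the astrocyte list, whose sums are given above.

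In neocortex, 4 receptor genes differed by more than 2-fold between the library labelled Fezf2 knockout and the wild-type library. Grin2a and Grin2b were higher, and Grik2 was among the 2 that were lower. With 1 library in each group there is no replicate check, and the 95% intervals given are exact binomial ones that cover counting error only. Of the 46 genes, 35 reached 5 CPM in either library. The 4 of 35 past 2-fold stand beside 2.33% of all 11218 genes at that level (1.01% higher and 1.32% lower). Of the 35, 25 had a log2 ratio below 0, against 49.2% of all genes, and the median was −0.18, against 0.01 for all genes. The interval lay below 0 for 19 of the 35, against 30.8% of all genes, and above 0 for 6, against 30.9%.

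**Figure D3:**
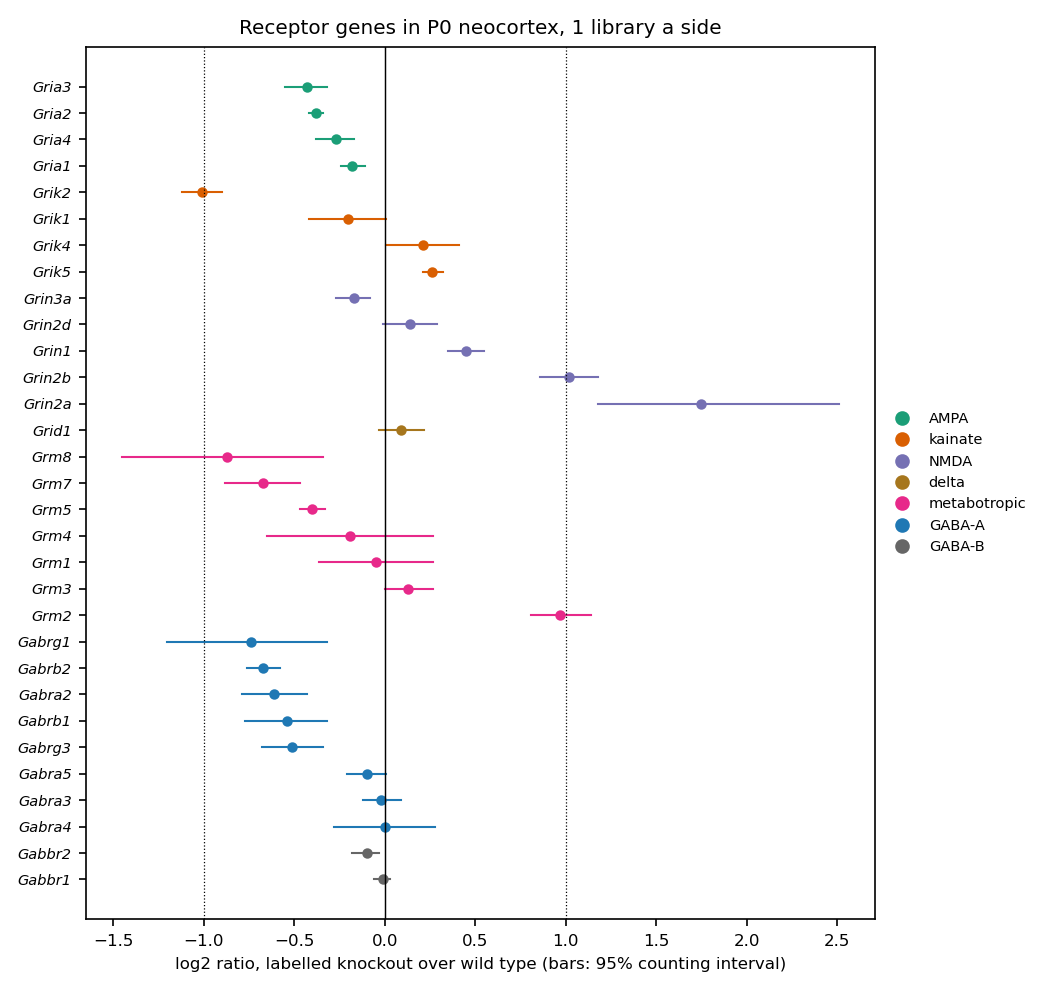
Log2 ratio of the library labelled Fezf2 knockout to the wild-type library for 31 of the receptor genes at 5 CPM or more, by class; bars are 95% binomial intervals, which cover counting error only. Grin2a and Grin2b lie past 2-fold above 0, Grik2 past 2-fold below, and the GABA-A genes lie at or below 0.

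The NMDA receptor genes were the class that lay highest, with a median log2 ratio of 0.45 over 5 genes, 4 of them above 0. Grin2a (ENSMUSG00000059003) had 128 counts in the library labelled knockout and 24 in the other, corresponding to 7.17 and 2.03 CPM; the log2 ratio was 1.75, with an interval of 1.18 to 2.51. Grin2b (ENSMUSG00000030209) had 1312 and 428 counts, corresponding to 73.5 and 36.2 CPM, and its log2 ratio was 1.02 (0.86 to 1.18). Grin1, with which both assemble, followed with 139 and 102 CPM and a log2 ratio of 0.45 (0.35 to 0.55). Grin2d, which is typical of interneurons and early brain, was at 54.7 and 49.7 CPM with an interval that held 0. Grin3a lay slightly below 0, at −0.17 (−0.27 to −0.08). The ratio of Grin2b was near the 2-fold limit. Interneuron markers summed to 824 CPM in the library labelled knockout and 799 in wild type, but Npy alone was at 228 and 91.5 CPM, a log2 ratio of 1.31. Of the 9 markers, 6 lay below 0, 5 of them with an interval below 0, and without Npy, which was set aside after its value was seen, the other 8 summed to 597 and 708 CPM. Their part in the NMDA receptor ratios was not tested.

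AMPA receptor genes all lay below 0, by less than 2-fold. Gria2 was at 590 and 766 CPM, a log2 ratio of −0.38, and Gria3, Gria4 and Gria1 were at −0.43, −0.27 and −0.18. The kainate genes went both ways. Grik2 (ENSMUSG00000056073), a kainate subunit that forms channels alone or with Grik5, had 1167 and 1553 counts, corresponding to 65.4 and 131 CPM, and a log2 ratio of −1.01 (−1.12 to −0.90). Grik5 was at 412 and 343 CPM, a log2 ratio of 0.26 (0.21 to 0.32). Grik2 lay just past 2-fold and was the only one of the 4 genes to fall short of it on the deposited RPKM values with a pseudocount of 0.1, where the count was 3.

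Metabotropic receptor genes differed by group. Grm2, a presynaptic receptor that lowers glutamate release, was at 66.1 and 33.7 CPM, a log2 ratio of 0.97 (0.81 to 1.14), just short of 2-fold. Grm3, its partner in group II, was at 68.4 and 62.4 CPM. Grm5 was at 207 and 273 CPM, a log2 ratio of −0.40. The group III genes Grm8 and Grm7 were at −0.87 and −0.67, and the median of the 3 group III genes at 5 CPM was −0.67. The median of all 7 metabotropic genes kept was −0.19. The delta receptor gene Grid1 had an interval that held 0.

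GABA-A receptor genes lay below 0 in 10 of 11 cases, with a median log2 ratio of −0.51, and Gabra4 was at 0.00. Gabra2 was at −0.61, with 27 and 41.3 CPM. The beta genes Gabrb2 and Gabrb1 were at −0.67 and −0.54. The gamma genes Gabrg1 and Gabrg3 were at −0.74 and −0.51. The GABA-B genes lay near 0, with a median of −0.06. Markers of cortical glutamatergic neurons summed to 1299 CPM in the library labelled knockout and 1784 in wild type. Of these 7 markers, 5 had a log2 ratio below 0 and 2 above, from −1.16 in Bhlhe22 to 1.04 in Emx1. Markers of striatal neurons summed to 26.2 and 50.3 CPM, but only 2 of the 8, Ppp1r1b and Drd1, reached 5 CPM, and both lay below 0. Astrocyte markers summed to 536 and 606 CPM, with 6 of the 9 at 5 CPM below 0 and 3 above. The part of these cells in the receptor ratios was not tested. The 5 GABA-A alpha genes kept summed with the sixth, Gabra6, to 248 and 287 CPM.

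Several of these genes neighbour each other in the RefSeq order of GRCm38.p6. On chromosome 5, Gabrg1 and Gabra2 had −0.74 and −0.61, while Gabra4 and Gabrb1, next to each other, had 0.00 and −0.54. On chromosome 7, Gabrg3 and Gabra5 had −0.51 and −0.10. The intervals of Gabrg1 (−1.20 to −0.32) and Gabra2 (−0.79 to −0.43) overlapped, while the other pairs named differed in size. In sorted cells Gabrg1 was at 0.44 (SE 0.46) and Gabra2 at −0.35 (SE 0.26), neither past the test. The annotated starts of Gabra4 and Gabrb1 overlap on opposite strands, and how the counting treated strand is not stated, so reads there cannot be told apart.

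Longer genes had lower ratios in neocortex over the whole table. The median log2 ratio of all genes was 0.10 for gene models under 3 kb, 0.00 for 3 to 6 kb and −0.10 for over 6 kb. Receptor genes lay below these in each class, at −0.35 for 2 genes, −0.06 for 16 and −0.27 for 17. The part of gene length in the receptor ratios was not tested beyond these medians. Among the genes that work beside the receptors, none was past 2-fold. The medians were −0.02 for 14 auxiliary subunits, 0.11 for 18 scaffold genes, 0.11 for 10 partners of GABA receptors and −0.13 for 16 genes of transmitter synthesis and transport. The values of these 4 lists ran from −0.78 to 0.67, −0.70 to 0.53, −0.24 to 0.20 and −0.57 to 0.69.

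Levels of different subunits were compared as CPM per kb of gene model. In sorted cells, over all 8 libraries, the highest gene of each class reported here was Gria2 at 172 CPM per kb for AMPA, Grik5 at 24.9 for kainate, Grin2b at 42 for NMDA, Grid1 at 3.97 for delta, Grm3 at 40.1 for metabotropic and Gabbr1 at 30 for GABA-B receptors. The next AMPA gene was Gria1 at 11.5 CPM per kb, and in the GFP libraries Gria1 at 8.02 to 11, Gria3 at 7.45 to 10.1 and Gria4 at 6.65 to 8.29 overlapped. In GFP, Gabbr1 at 26.2 to 31.8 and Gabbr2 at 18.6 to 28 CPM per kb also overlapped, while Grik5 at 19.2 to 24.1 lay just above Grik2 at 16.7 to 19. In neocortex the order differed for 2 classes: Grin1 at 12.4 CPM per kb led the NMDA genes and Grm5 at 29.6 the metabotropic genes, as the mean of the 2 libraries. The other leading genes there were Gria2 at 97, Grik5 at 97.9, Grid1 at 11.9 and Gabbr1 at 71.8 CPM per kb. The kits and the mitochondrial share of each library differ between these experiments, and CPM is scaled to the whole library. No order across the experiments was tested.

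**Figure D4:**
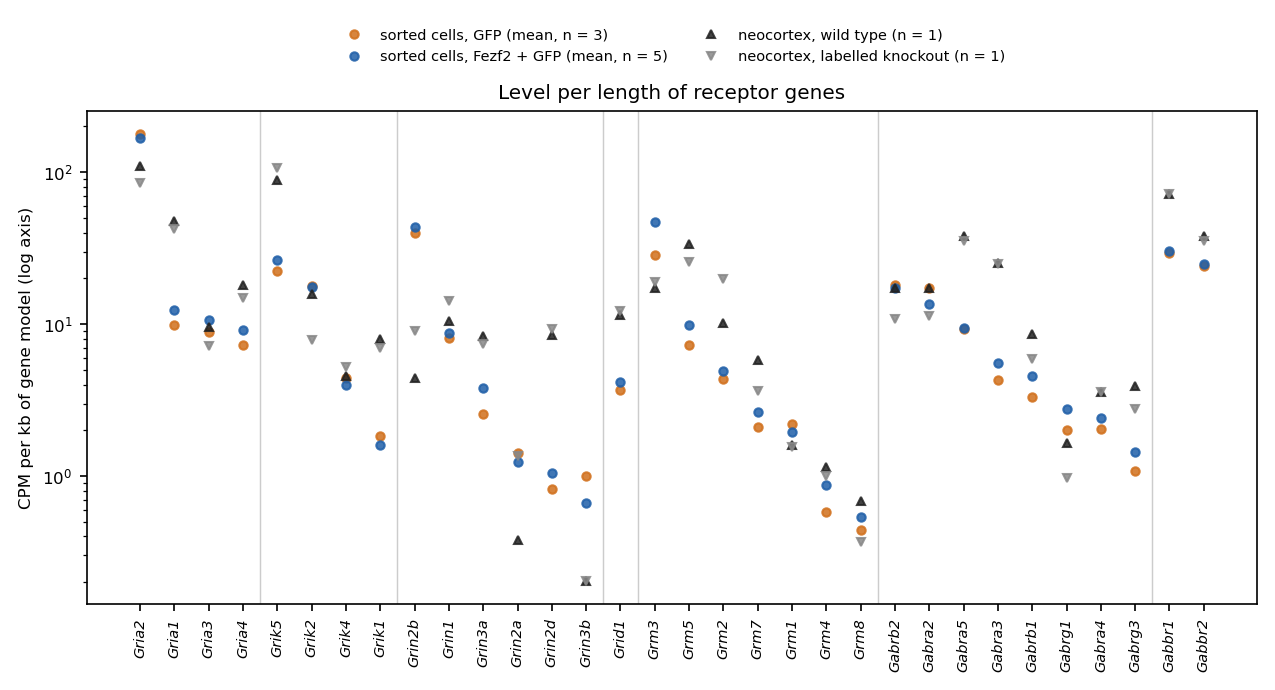
Levels of receptor genes in CPM per kb of gene model, on a log axis, in the sorted-cell groups and the neocortex libraries, by class. Gria2 is highest in sorted cells, at a mean of 172 CPM per kb, and the AMPA genes lie closer together in neocortex.

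Within a class, the share of each subunit in the per-length counts gives the makeup at the RNA level. Gria2 made up 85.3 to 89.3% of AMPA receptor RNA in GFP and 75.6 to 89.1% in Fezf2 + GFP, against 56.8% and 59.3% in the neocortex libraries labelled knockout and wild type. Grin2b made up 94.2 to 94.6% of the 4 Grin2 genes in GFP and 92.6 to 96% in Fezf2 + GFP. In neocortex its share was 45% in the library labelled knockout and 32.3% in wild type, where Grin2d held 46.6% and 61.8% and Grin2a 6.77% and 2.8%. Grin2d, by contrast, held 0.907 to 4.04% in the sorted libraries. Among the 6 alpha genes of the GABA-A receptor, Gabra2 held 43.2 to 56.6% in GFP and 25.6 to 56.6% in Fezf2 + GFP. Gabra5, the alpha subunit of extrasynaptic receptors, led in neocortex with 45.5% and 42.4%. Among the 3 beta genes, Gabrb2 held 16.8 to 19.6% in GFP, 14.1 to 25.2% in Fezf2 + GFP, and 14.8% and 19.5% in neocortex. In each of these shares, the Fezf2 + GFP range overlapped that of GFP.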

How the data were processed

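RNA was measured in 10 libraries of single reads of 75 bases. Raw counts for each Ensembl gene were deposited by the authors, with RPKM values for the same libraries. Per the submitters' processing notes, STAR 2.4.0e, HTSeq 0.6.1, SAMtools, FastQC, Bowtie 0.12.5 and MACS2 2.0.9 were used with mm9, with no step given for each. Gene annotation and strand handling are not given in the sources used here. Counts of genes that overlap or have near-identical copies are uncertain. Peak lists from the series were not analysed here. Some genes of these families and lists are not reported by name here, though counts, sums and medians include those among the 46 and the lists.

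For Fezf2 + GFP against GFP, edgeR 4.0.16 in R 4.3.3 was fitted to all genes with TMM scaling, the filterByExpr count filter and its robust two-sided quasi-likelihood test, and p-values were adjusted by Benjamini-Hochberg with a limit of 0.05. The common biological coefficient of variation was 29.8%. For the neocortex libraries, CPM scaled by TMM were compared as log2 ratios after adding a prior count of 2, for genes that reached 5 CPM in 1 library or both, with exact binomial 95% intervals. The intervals cover counting error only. They treat each read as independent, which PCR copies are not, so they can be too narrow even for counting error. Gene length came from the deposited counts divided by the deposited RPKM in the neocortex libraries, which gave 1 length within 1% for all 9777 genes with 100 counts in both. Promoter motifs were searched on both strands. The edgeR fit was tested on simulated data with 200 changed genes.

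Receptor genes, gene lists and tests were chosen with earlier results of these data known. Subject to that, values are given for the 10 receptor genes of smallest edgeR p, every receptor gene past 2-fold in neocortex with an interval that leaves out 0, the highest gene per length of each class, and listed partner genes with an unadjusted p under 0.05 or past 2-fold, at most 6 a comparison. Genes named beyond these illustrate a class and were chosen after their values were seen. Alternatives were DESeq2 1.42.0, other scaling, no count filter, no mitochondrial genes, a replicate block, libraries left out, other priors and minima, and RPKM.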

Additional observations from a re-analysis of the deposited data

Results flagged for a closer look

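In 2 of the 36 receptor genes tested in sorted cells, 1 Fezf2 + GFP library stood apart from the other 4 by Dixon's criterion, which chance alone meets in about 1 in 20 groups. Grm8, a presynaptic group III metabotropic receptor, was at 10 CPM in replicate 2, from 38 counts, against 2.02 to 4.13 in the other 4. Grik4, a kainate subunit that forms channels with other kainate subunits, was at 42.5 CPM in replicate 1, from 144 counts, against 15.5 to 21.4 in the other 4.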

How the results depend on the processing

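The count of receptor genes called in sorted cells was 0 in every alternative except the fit with no count filter, which called 1, Grm3 (log2 fold change 0.71, adjusted p 0.0342). That fit also called 4 partner genes, all of transmitter synthesis and transport, where no other fit called any. The median log2 fold change of receptor genes stayed above 0, from 0.09 to 0.25 when 1 library was left out. Over the whole table, 2 genes were called, against 6 with DESeq2, 117 with no count filter, 1 without Fezf2 + GFP 5 and GFP 1 together (the libraries high in Xist), 6 without Fezf2 + GFP 4 and 5 together, and 1 to 2 when 1 library was left out. The cause was not tested. In neocortex the count past 2-fold was 4 in each alternative other than RPKM, where it was 3. Sorted-cell depth limits genes of few counts such as Grin2a, and neocortex has 1 library a group.

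The fit with the replicate block, on replicates 1 to 3 of both groups, called 10 genes and 0 receptor genes. The labels do not state that the numbers pair the samples. Deviations from the group mean correlated at −0.032, −0.034 and −0.058 in same-numbered libraries and at −0.007 to 0.043 in the other pairs. Correlations this near 0 do not settle whether same-numbered libraries shared a litter or a day.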
